A study of Mus musculus with 20 samples.

Results

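Transcripts of 10 hexose transporters were followed in 5 mouse organs. They were taken from the deposited count table by gene symbol, and each symbol (Slc2a1, Slc2a2, Slc2a3, Slc2a4, Slc2a5, Slc2a9, Slc5a1, Slc5a2, Slc5a9 and Slc5a10) matched a single row among 55401 genes. The study compared wild-type (WT) mice with Nsun6 knockout (KO) mice, in which CRISPR/Cas9 removed exons 3 and 4 of Nsun6, a gene for an RNA m5C methyltransferase. Both genotypes were on the C57BL/6J background, and the methods give 8-week-old females. Total RNA of heart, kidney, liver, small intestine and spleen was made into mRNA libraries with 2 WT and 2 KO libraries per organ, 20 in all. The study calls the replicates biological, but does not say whether 1 animal gave several of the organs.

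Hexoses cross cell membranes through 2 unrelated families of carriers. The GLUT proteins (Slc2a genes) let sugar run down its own gradient, whereas the SGLT proteins (Slc5a genes) couple sugar uptake to the inward flow of sodium and can work against the sugar gradient. In the gut and the kidney tubule an SGLT on the luminal face and a GLUT on the blood side act in series, liver cells take up and release glucose through GLUT2, and GLUT4 in heart, skeletal muscle and fat moves from storage vesicles to the cell surface in response to insulin.

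Total counts per library ranged from 15897446 to 44508197, with a median of 28513950. Nsun6 itself was counted in every library, at 338 and 156 counts in the WT small intestine libraries and 267 and 127 counts in the KO ones. The WT and KO pairs were 183 and 91 against 83 and 124 counts for liver, 317 and 167 against 177 and 282 for spleen, 189 and 141 against 111 and 93 for kidney, and 113 and 242 against 80 and 232 for heart. The KO to WT difference passed the test in no organ. The raw counts, which are not scaled for library totals, overlapped between the groups except in the kidney. These counts cover the whole gene and do not separate the deleted exons, so they do not check the labels. Levels are given as TPM, a scale per length and per library total computed from the counts and the merged exon length of each gene, so that genes can be compared with one another. Differences come from edgeR fits on TMM-scaled counts. The 2 scales do not share a zero between organs, because TPM lay above length-scaled TMM values by 0.70 on the log2 scale in the liver, 1.31 in the heart, 1.34 in the small intestine, 1.53 in the kidney and 1.93 in the spleen.

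The organ labels were checked against marker genes. Albumin (Alb) led the hepatocyte markers in the liver with 170834 ± 30376 TPM (SD, n = 4), Myl2 led the cardiomyocyte markers in the heart with 30637 ± 5611 TPM, and Kap led the proximal tubule markers in the kidney with 110815 ± 23435 TPM. Cd79a, a B cell gene, stood at 1166 ± 357 TPM in the spleen, and Lgals4, an enterocyte gene, at 3936 ± 847 TPM in the small intestine. Several libraries stood apart from others of their label. The spleen WT replicate 2 library held liver transcripts, since the 7 hepatocyte markers lay between 2.32% and 5.67% of their liver level there and at most 0.463% in the other spleen libraries. The small intestine KO replicate 1 library held heart transcripts, with 494 TPM summed over 6 cardiomyocyte markers against 6.27 to 11.9 TPM in the other 3 libraries of that organ. In the small intestine, replicate 1 and replicate 2 of both genotypes differed in every marker of the proximal and distal gut, as described further down. Kidney WT replicate 2 was low in Slc34a1, a phosphate carrier of the proximal tubule, with 245 TPM against 933 to 3374 TPM in the other kidney libraries. The heart replicates also differed, with 811 genes called between them (4.88% of those tested), and the summed adipocyte markers were 4.70 and 11.1 TPM in one pair and 541 and 207 TPM in the other.

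The leading transporter differed between most organs. Slc5a1 (SGLT1) made up 79.9% ± 12.5 (SD, n = 4) of the summed TPM of the 10 genes in the small intestine, and Slc2a2 (GLUT2) made up 86.8% ± 2.67 in the liver. In the heart Slc2a4 (GLUT4) made up 95.05% ± 0.984. The kidney and the spleen were less one-sided, with Slc5a2 (SGLT2) at 38.0% ± 21.9 and Slc2a3 (GLUT3) at 36.7% ± 4.98 of the sum. In the spleen Slc2a3 and Slc2a1 stood at the same mean of 18.7 TPM. In kidney WT replicate 2, Slc2a2 (104 TPM), Slc5a1 (73.0 TPM), Slc2a5 (45.2 TPM) and Slc5a10 (36.5 TPM) lay above Slc5a2 (34.9 TPM). The sum itself was 2242 ± 1208 TPM in the small intestine, 700.3 ± 294 in the kidney, 226 ± 56.2 in the heart, 184 ± 42.6 in the liver and 50.7 ± 5.67 in the spleen. In whole organs, fewer cells of a type and less RNA per cell cannot be told apart.

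**Figure D1:**
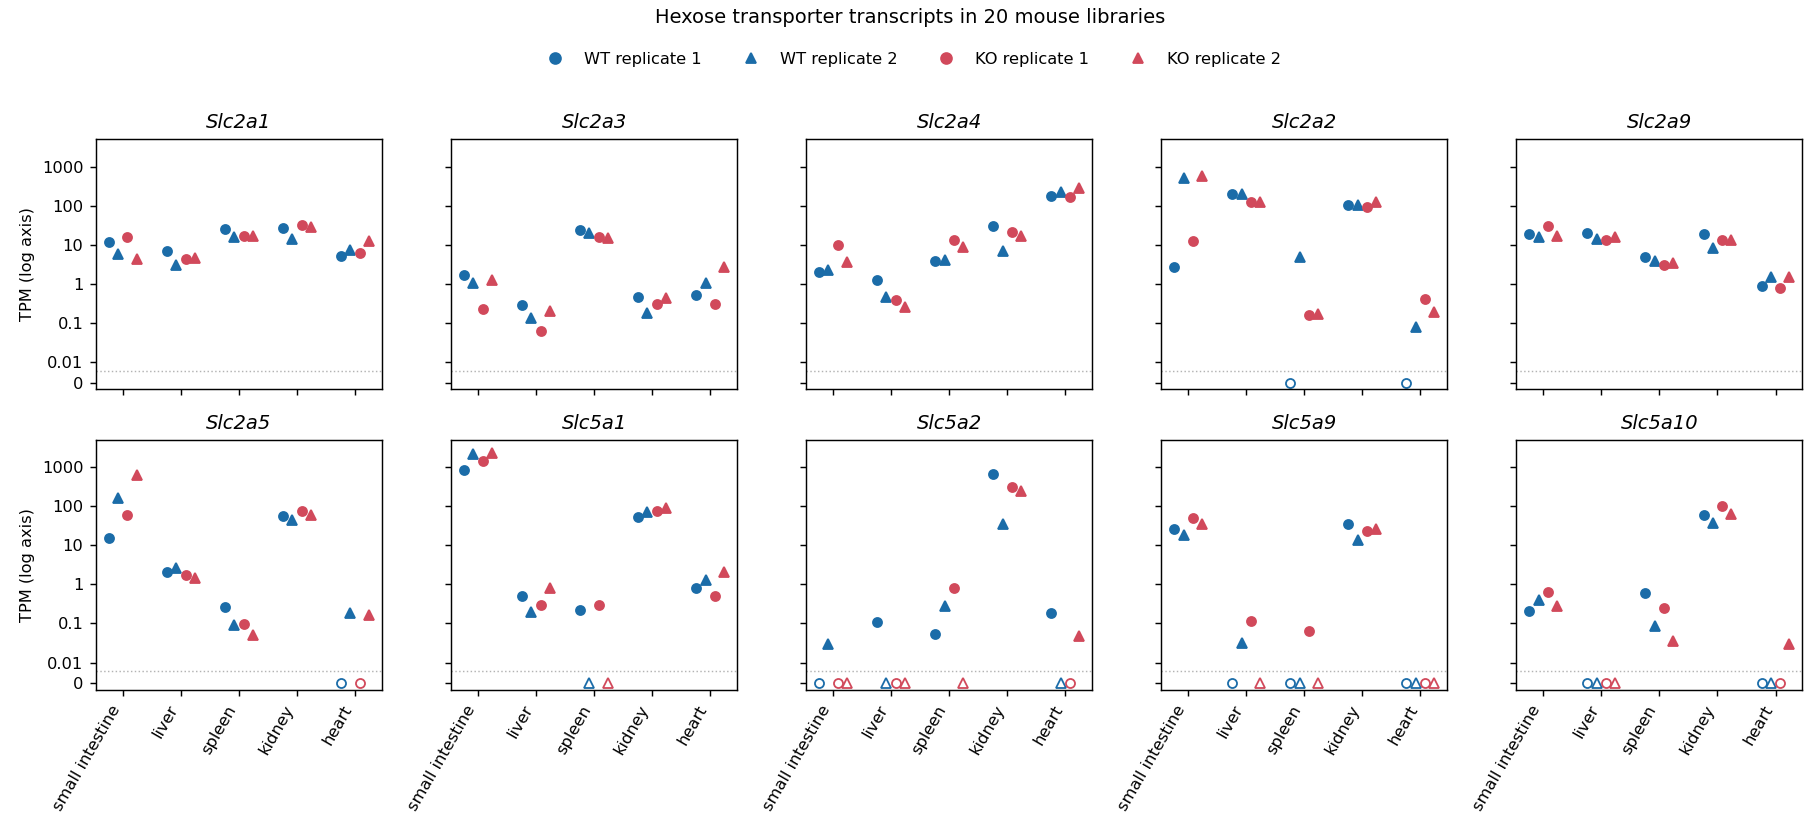
Level of each transporter in TPM (log axis, open symbols at the bottom for 0) in the 4 libraries of each organ, WT in blue and KO in red, circles for replicate 1 and triangles for replicate 2. Slc2a4 is highest in the heart (167 to 280 TPM), Slc5a2 and Slc5a10 in the kidney, Slc2a3 in the spleen, and Slc2a2 spans 2.66 to 568 TPM within the small intestine.

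Organs were compared in pairs in a fit of all 20 libraries, and a gene was called different at a Benjamini-Hochberg adjusted p under 0.1 with a fold change over 2. All 10 members were called between the kidney and the heart, where 38.0% of the 23159 genes tested were called. The call of Slc2a3, higher in the heart, was lost without heart KO replicate 2 (0.83 in place of 1.83) and with KO libraries alone. Between the spleen and the kidney 9 were called (background 50.5%), and between the liver and the kidney 8 (34.7%). The small intestine differed in 7 members from the kidney (45.7%) and in 7 from the heart (53.5%), and in 6 each from the liver (46.3%) and the spleen (49.5%). The liver differed in 7 members from the spleen (52.2%) and in 6 from the heart (44.5%). Spleen and heart differed in 5 (52.6%). With all libraries, the share of members called was thus not far from that of all genes in the pairs without the kidney. It was further above that share in the pairs with the kidney. The liver to heart call of Slc5a9, with 10 counts against 0, was lost at an adjusted p under 0.05 and with WT or KO libraries alone. The shares rested partly on single libraries. Without small intestine KO replicate 2, 4 members were called between the small intestine and the kidney. Without heart KO replicate 2, 4 were called between the liver and the heart.

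Slc2a1 (GLUT1), the carrier for basal glucose uptake in most tissues, lies on chromosome 4 of GRCm38 (119108711 to 119137983, plus strand). It was the most evenly spread member, with 25.2 ± 7.64 TPM in the kidney, 18.7 ± 4.25 in the spleen, 9.48 ± 5.40 in the small intestine, 7.73 ± 3.10 in the heart and 4.74 ± 1.74 in the liver (SD, n = 4 each). No neighbours in this order were called, and the nearest was kidney over spleen with a fitted log2 difference of 0.78 (standard error 0.31, edgeR quasi-likelihood adjusted p = 0.0489), which is less than a 2-fold change. With KO libraries alone kidney over spleen was called (spleen over kidney -1.17, adjusted p = 0.0546). The kidney was called higher than the small intestine, the heart and the liver, by 1.23, 1.49 and 1.55 on the log2 scale. Without KO replicate 2 of the small intestine the first of these was 0.91, under the 2-fold threshold, and with WT libraries alone it was not called (adjusted p = 0.11).

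Slc2a3 (GLUT3), a high-affinity glucose carrier of neurons and blood cells, lies on chromosome 6 (122727809 to 122801640, minus strand). It stood at 23.4 and 20.6 TPM in the WT and 15.5 and 15.3 TPM in the KO spleen libraries, against at most 2.65 TPM in any library of another organ. No spleen library overlapped with any other organ. The spleen was higher than the heart, the second organ by TPM, by 3.57 on the log2 scale (standard error 0.60, edgeR adjusted p = 0.00016), and by 4.65 without heart KO replicate 2. The heart and the small intestine did not separate, with 1.14 ± 1.06 and 1.07 ± 0.630 TPM, and neither did the kidney and the liver, with 0.343 ± 0.129 and 0.173 ± 0.0987 TPM. The call of the small intestine over the kidney was lost without KO replicate 2 of the small intestine, where the log2 fold change was 0.91 (adjusted p = 0.215), and with KO libraries alone (1.29, adjusted p = 0.336).

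Slc2a4 (GLUT4), the insulin-responsive carrier of muscle and fat, lies on chromosome 11 (69942539 to 69948188, minus strand). Its heart libraries held 181 and 228 TPM in WT and 167 and 280 TPM in KO. The next organ was the kidney with 18.7 ± 9.73 TPM, followed by the spleen with 7.44 ± 4.42, the small intestine with 4.49 ± 3.76 and the liver with 0.596 ± 0.466 TPM. The heart exceeded the kidney by 3.81 on the log2 scale (standard error 0.35, edgeR adjusted p = 1.1e-06) and the liver by 8.06 (standard error 0.44, adjusted p = 5.2e-09), with no overlap of libraries. Spleen and small intestine were not called different. Adipocyte markers, given here because fat also uses GLUT4, summed to 4.70 and 541 TPM in the WT and 11.1 and 207 TPM in the KO heart, with Cfd as the most abundant and Lep at 0 in both replicate 1 libraries. The part of fat in the heart level of Slc2a4 was not tested.

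Of 8 genes that build or steer the GLUT4 storage vesicle, 3 were called higher in the heart than in the kidney (18.1% of all genes) and 1 higher in the kidney (19.9%), a share of the list near the 38.0% of all genes called in either direction. Tbc1d4, a brake on vesicle release that insulin signalling lifts, was higher in the heart by 2.45 on the log2 scale (standard error 0.34), and Lnpep, an aminopeptidase that travels in these vesicles, by 1.32 (standard error 0.24). Tbc1d1, the relative of Tbc1d4, went the other way and was higher in the kidney by 2.15 (standard error 0.20). The median over the list was -0.41 (kidney over heart), against 0.00 over all genes. Among 10 genes of glucose phosphorylation and release, Hk2, the hexokinase of muscle, was the most abundant in the heart with 82.7 ± 14.9 TPM.

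Slc2a2 (GLUT2), the low-affinity carrier for glucose and fructose on the blood side of gut and tubule cells and on hepatocytes, lies on chromosome 3 (28697903 to 28731359, plus strand). In the liver it stood at 194 and 196 TPM in WT and 128 and 124 TPM in KO, and in the kidney at 104 in both WT libraries and 93.0 and 126 TPM in KO. The small intestine had the highest mean, 274 ± 308 TPM, but this mean joined libraries at 2.66 and 12.7 TPM with others at 512 and 568 TPM. The small intestine, liver and kidney were not called different from each other in the main fit of all 20 libraries, which has no replicate block. Without the filter on low counts the kidney was called lower than the liver (1.33, edgeR adjusted p = 0.000372) and the small intestine (1.63, adjusted p = 6.2e-06). With the replicate number as a block, the small intestine was called lower than the liver (log2 -2.03, edgeR adjusted p = 0.0777). The sign of the small intestine to liver difference (log2 0.31, standard error 1.35) turned to -3.10 without WT replicate 2 and to -2.08 without KO replicate 2 of the small intestine. The kidney exceeded the spleen by 7.84 on the log2 scale (standard error 1.84, edgeR adjusted p = 0.0029), a call that was lost with the WT libraries alone (adjusted p = 0.114). Without spleen WT replicate 2, the library with liver transcripts, the value was 12.71.

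In the spleen Slc2a2 had 0 counts in WT replicate 1, 267 in WT replicate 2 and 11 in each KO library. The WT replicate 2 value was 2.96% of the liver mean, inside the range of the 7 hepatocyte markers in that library. The KO replicate 1 value, 0.0981% of liver, lay among those of the markers in that library (0.0585% to 0.330%). The KO replicate 2 value, 0.103%, lay below all the markers of its library (0.125% to 0.463%). The heart held 38 counts of Slc2a2 over its 4 libraries, and the spleen to heart difference changed sign without spleen WT replicate 2, from a log2 value of 1.74 to -3.11.

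Slc2a9 (GLUT9), a carrier of urate that has also been described to move glucose and fructose, lies on chromosome 5 (38349273 to 38503143, minus strand). It was present in every library, at 20.1 ± 6.59 TPM in the small intestine, followed by the liver with 15.8 ± 3.23, and at 13.5 ± 4.39 in the kidney, 3.81 ± 0.814 in the spleen and 1.16 ± 0.398 in the heart. The order of the first 2 depended on the scale, since the liver led by length-scaled TMM values, and the difference between them (log2 0.32 in favour of the liver, standard error 0.20) was not called. The liver was higher than the kidney by 1.10 (standard error 0.20, edgeR adjusted p = 0.00056), although their TPM values overlapped. Kidney over spleen and spleen over heart were called, with log2 fold changes of 2.18 and 1.12. With KO libraries alone the spleen to heart value was 0.95, under the 2-fold threshold.

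Slc2a5 (GLUT5), the fructose carrier of the intestinal brush border and the straight proximal tubule, lies on chromosome 4 (150119283 to 150144169, plus strand). The small intestine held 15.7 and 163 TPM in WT and 59.5 and 644 TPM in KO, the lower value of each pair being replicate 1. In the kidney it was even, at 55.5 and 45.2 TPM in WT and 75.9 and 58.3 TPM in KO. The liver held 1.98 ± 0.465 TPM, and the spleen and heart 0.127 ± 0.0972 and 0.0871 ± 0.101 TPM. Small intestine over kidney was called (log2 1.93, standard error 0.78, edgeR adjusted p = 0.0554), but the libraries overlapped. The call was lost without either replicate 2 library of the small intestine (0.58 without WT, 0.53 without KO) and without any 1 of the 4 kidney libraries. It was also lost with WT libraries alone (1.15, edgeR adjusted p = 0.434) and with the replicate number as a block (0.96, under the 2-fold threshold). The kidney exceeded the liver by 4.06 (standard error 0.86, adjusted p = 0.0021) with no overlap.

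Enzymes that make or break down fructose, and Mpi of mannose metabolism, were described as a list of 7. In the heart the most abundant of them was Sord (317 ± 70.4 TPM), which makes fructose from sorbitol, and in the spleen Akr1b3 (45.7 ± 4.34 TPM), the aldose reductase that makes sorbitol. Between kidney and heart 5 of 7 were called higher in the kidney (19.9% of all genes) and 2 in the heart (18.1%), with a median log2 fold change of 4.999 against 0.00 over all genes. Those 2 were Mpi and Akr1b3.

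Slc5a1 (SGLT1), the sodium-coupled carrier for glucose and galactose of the gut brush border, lies on chromosome 5 (33104219 to 33162870, plus strand). It was the most abundant member in any organ, with 831 and 2108 TPM in the WT and 1440 and 2338 TPM in the KO small intestine. The kidney followed with 52.4 and 73.0 TPM in WT and 77.5 and 88.7 TPM in KO, and no other organ exceeded 2.13 TPM in any library. The small intestine was higher than the kidney by 4.72 on the log2 scale (standard error 0.81, edgeR adjusted p = 0.00032), and the kidney higher than the heart by 5.83 (standard error 0.87, adjusted p = 0.00011), both without overlap. The second value was 6.42 without heart KO replicate 2. Heart and liver did not separate.

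Slc5a2 (SGLT2), which recovers most of the filtered glucose in the convoluted proximal tubule, lies on chromosome 7 (128265657 to 128272430, plus strand). Its kidney libraries held 673 and 34.9 TPM in WT and 304 and 247 TPM in KO. The kidney exceeded the spleen by 10.45 on the log2 scale (standard error 1.26, edgeR adjusted p = 3.7e-05), and its level per total count was 39161 times that of the small intestine, where 1 count was found in 4 libraries (exact 95% counting interval 7028 to 1546810, which covers counting error only). The spleen difference was 13.62 without spleen KO replicate 1, 11.22 without spleen WT replicate 2 and 9.17 without kidney WT replicate 1. Spleen, heart, liver and small intestine held 39, 6, 4 and 1 counts over 4 libraries each, and no neighbours among them were called. Of the spleen counts, 29 came from KO replicate 1. The kidney marker Kap ranged from 1.16 to 174 TPM over the spleen libraries. The part of kidney transcripts in the spleen counts of Slc5a2 was not tested. Of its exon bases, 20.6% are shared with BC017158 on the other strand.

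Slc5a9 (SGLT4), described as a sodium-coupled carrier of mannose, glucose and fructose, lies on chromosome 4 (111875375 to 111902918, minus strand). It was shared by the small intestine, with 26.1 and 18.8 TPM in WT and 50.2 and 35.8 TPM in KO, and the kidney, with 34.3 and 13.8 TPM in WT and 23.8 and 26.4 TPM in KO. These organs overlapped and were not called different (log2 0.57, standard error 0.50, edgeR adjusted p = 0.379). The kidney was higher than the liver by 8.80 (standard error 0.78, adjusted p = 5.9e-06), a value that was 11.51 without liver KO replicate 1 and 10.59 without liver WT replicate 2. No count was found in any heart library, so against a floor of 3 counts over the organ the small intestine was at least 2351-fold and the kidney at least 1828-fold higher per total count.

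Slc5a10 (SGLT5), described as a sodium-coupled mannose and fructose carrier of the kidney, lies on chromosome 11 (61672781 to 61720826, minus strand). The kidney held 58.3 and 36.5 TPM in WT and 102 and 63.1 TPM in KO, and no library of another organ exceeded 0.621 TPM. The kidney was higher than the small intestine by 7.18 on the log2 scale (standard error 0.62, edgeR adjusted p = 3.1e-06). The liver had no count in 4 libraries, which puts the kidney at least 2804-fold higher per total count. The heart had 1 count (ratio 6667, exact 95% counting interval 1196 to 263369). Of its exon bases, 16.8% are shared with Grap and Fam83g on the other strand.

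The remaining carriers of both families were given as lists. Counts between kidney and heart are read against 19.9% of all genes called higher in the kidney and 18.1% in the heart. Among the other Slc5 genes, Slc5a12, a lactate carrier, led in the kidney with 245 ± 64.95 TPM, and 6 of 9 were called higher in the kidney than in the heart and 0 lower, with a median of 5.95. Among the other Slc2 genes, 1 of 6 was higher in the kidney and 1 in the heart. Of 4 proteins that act on SGLTs, 3 were tested and all 3 were called higher in the kidney. Pdzk1ip1, the small membrane protein that binds and activates SGLT2, stood at 1310 ± 159 TPM in the kidney, and Rsc1a1 had no count in any of the 20 libraries. Among 14 regulators, Hnf4a, a nuclear receptor of gut, liver and kidney, was the most abundant in the small intestine (313 ± 112 TPM) and the kidney (269 ± 39.4), Mlxipl, the carbohydrate response factor ChREBP, in the liver (226 ± 92.7), and Txnip, which restrains glucose uptake, in the heart (330 ± 118) and the spleen (276 ± 18.7).

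For each member the genes with the most similar pattern were found by Pearson's r of log2 CPM over the 20 libraries, among 23159 genes. This is a description, as the libraries share organs and replicates, and by Spearman's rho the nearest gene was another for 9 of the 10 members, all but Slc2a2. Slc5a1 was close to Mogat2 (r = 0.980) and Patj (0.978), and Slc2a5 most like Mme (0.983), Gal3st1 (0.970) and Tmprss2 (0.964). Slc2a2 was most like BC049987 (0.972) and Aadac (0.967). For Slc5a2 they were Aqp2 (0.9899), Slc22a6 (0.984) and Gm8765 (0.984), for Slc5a9 Calml4 (0.984), Slc13a1 (0.983) and Slc44a4 (0.982), and for Slc5a10 Gm11754 (0.971), Marchf10 (0.971) and Hoxc10 (0.969). Slc2a4 went with Ak1 (0.982), Apbb1 (0.977) and Rbfox1 (0.974), Slc2a3 with Apobec3 (0.978), Tspyl3 (0.967) and Il2rg (0.964), and Slc2a9 with Dnajc22 (0.986), Fgfr2 (0.984) and Chuk (0.982). Slc2a1 had the lowest values, with Hsd17b14 (0.889), BC035947 (0.871) and Map3k7cl (0.871). Between members, r was highest for Slc5a2 with Slc5a10 (0.927), Slc5a1 with Slc5a9 (0.917) and Slc2a5 with Slc5a9 (0.901), over the same 20 libraries.

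Within the small intestine, libraries of the same replicate number lay together for several transporters. Slc2a2 was 192-fold higher in replicate 2 than in replicate 1 in WT and 44.8-fold higher in KO by TPM, and Slc2a5 was 10.4-fold higher in WT and 10.8-fold higher in KO. Replicate 2 also held more Slc5a1 (2.54-fold in WT, 1.62-fold in KO), whereas Slc2a1 was 2.06-fold and 3.635-fold higher in replicate 1. Slc5a9 and Slc2a9 lay within 1.82-fold in both genotypes. The labels give no gut segment, so marker genes of the proximal and distal intestine are set beside these values.

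Replicate 2 was tested against replicate 1 over both genotypes, with genotype as a term, in edgeR's quasi-likelihood test. Of 9 members that passed the filter on low counts, 2 were called, both higher in replicate 2, where 7.64% of 17680 genes were called (800 higher in replicate 2 and 550 higher in replicate 1). For Slc2a2 the fitted log2 fold change was 6.87 with a standard error of 0.73 (adjusted p = 0.0305), between 5.84 and 7.94 when a library was left out, and for Slc2a5 it was 3.76 with a standard error of 0.23 (adjusted p = 0.0131). Slc5a1, with 1.37 (standard error 0.33, adjusted p = 0.125), and Slc2a1, with -1.09 (standard error 0.37, adjusted p = 0.206), did not pass. Their replicate 1 and replicate 2 libraries did not overlap by TPM, as was so for 60% of all genes tested. Slc5a1 was called by DESeq2 (adjusted p = 0.000392). The median over the 9 members was 0.25, against -0.03 over all genes, and Slc5a2 had 1 count in the 4 libraries and did not enter.

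All 9 markers of the proximal intestine were called higher in replicate 2 and all 8 of the distal intestine higher in replicate 1. Pdx1, a factor of the duodenum, had no count in replicate 1 and 94.3 and 70.5 TPM in WT and KO replicate 2. Gata4, which marks the gut above the ileum, stood at 0.519 and 1.37 TPM in replicate 1 and 58.0 and 49.1 TPM in replicate 2, and lactase (Lct) at 0.0127 and 0.0655 against 233 and 688 TPM. Fabp6, the bile acid binding protein of the ileum, held 39675 and 37793 TPM in replicate 1 and 1.08 and 2.01 TPM in replicate 2, and Slc10a2, the ileal bile acid carrier, 1722 and 2811 against 2.42 and 4.64 TPM. Their summed levels were 635 and 2151 TPM against 38113 and 51718 TPM for the proximal list, and 43548 and 43007 against 399 and 410.2 TPM for the distal list, in replicate 1 and replicate 2 of WT and KO. The median log2 fold change was 6.29 for the proximal and -5.66 for the distal list. Of 6 enterocyte markers 1 was called, Alpi, the alkaline phosphatase of the brush border, and the median was 0.05. By TPM, 5 of the 6 did not overlap between replicates, where 60% of all genes tested did not, and Cdh17, Krt20, Lgals4 and Epcam were lower in replicate 2.

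**Figure D2:**
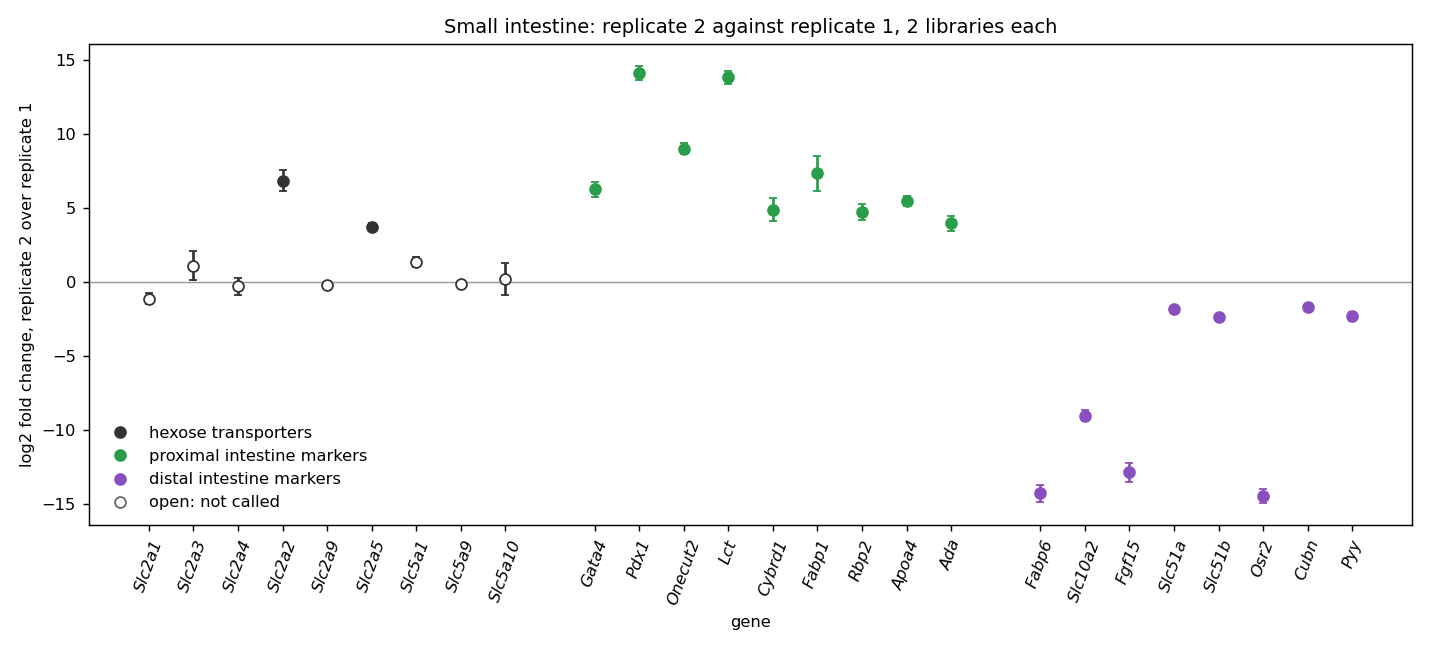
Log2 fold change of replicate 2 over replicate 1 in the small intestine (points, bars are standard errors from the edgeR fit, 2 libraries on each side), for the 9 transporters that passed the filter and for proximal and distal intestine markers. Slc2a2 (6.87) and Slc2a5 (3.76) are the called transporters, all proximal markers lie above 0 and all distal markers below. Pdx1, Fgf15 and Osr2 had no count on one side, so their fitted values depend on the prior count.

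Other genes of hexose handling were set beside the transporters. Of the 7 enzymes of fructose, sorbitol and mannose 3 were called, all higher in replicate 2. Among them were Khk, the ketohexokinase that traps fructose (log2 2.48, standard error 0.23), and Tkfc (2.78, standard error 0.23), and the list had a median of 1.53. Slc2a7, a GLUT close to Slc2a5, was higher in replicate 2 at 72.4 and 65.5 TPM against 7.04 and 10.9 TPM, and Slc2a13, the proton-coupled inositol carrier, was lower at 0.134 and 0.207 against 4.89 and 4.89 TPM. Among the other Slc5 genes, Slc5a11 and Slc5a4b were higher in replicate 2, and Slc5a8, a carrier of short-chain fatty acids, was at 267 and 307 TPM in replicate 1 and at 0 and 0.0361 TPM in replicate 2. Slc37a4, the glucose 6-phosphate carrier of the endoplasmic reticulum, the kinase Sgk1 and the regulator Mlxipl were each the single called gene of their list, with log2 fold changes of 2.51, 1.91 and 1.70, and none of the 8 GLUT4 vesicle genes was called. In the other organs the same contrast called Slc2a3 in the heart (log2 1.54, standard error 0.52, adjusted p = 0.0645, background 4.88%) and no other member, where the background was 0.0699% in the liver, 0.00531% in the spleen and 0.0% in the kidney.

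The sequence before the start of the 3 transporters with the highest fitted log2 values between the intestinal replicates is shown as the stretch next to their annotated start, although Slc5a1 was not called (adjusted p = 0.125). RefSeq promoters of GRCm38.p6 were available for 6 of the 10 members. The first is upstream of Slc2a2 (chr3:28697653-28697902, plus strand), the second of Slc2a5 (chr4:150119094-150119282, plus strand) and the last of Slc5a1 (chr5:33103969-33104218, plus strand), each 5′ to 3′ and ending before the annotated start, with capitals for a match to a searched motif.
Slc2a2: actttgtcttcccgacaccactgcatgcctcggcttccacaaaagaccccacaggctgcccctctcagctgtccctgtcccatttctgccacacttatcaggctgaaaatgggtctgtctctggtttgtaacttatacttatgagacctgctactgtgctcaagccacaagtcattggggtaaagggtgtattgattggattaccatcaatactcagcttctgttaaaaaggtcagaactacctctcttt
Slc2a5: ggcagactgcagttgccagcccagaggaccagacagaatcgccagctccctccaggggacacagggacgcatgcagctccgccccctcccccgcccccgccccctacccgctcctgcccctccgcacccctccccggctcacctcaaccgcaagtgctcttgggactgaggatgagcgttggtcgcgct
Slc5a1: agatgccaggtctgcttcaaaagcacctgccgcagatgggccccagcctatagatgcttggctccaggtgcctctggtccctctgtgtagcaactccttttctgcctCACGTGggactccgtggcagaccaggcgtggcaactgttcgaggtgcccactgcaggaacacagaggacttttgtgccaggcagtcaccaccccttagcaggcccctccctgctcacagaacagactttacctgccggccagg
The motifs searched on both strands were GTTAAT for the core of the HNF1 site, AGATAA for the GATA factors, TTTATG for the CDX factors, CAAAGTCCA for the HNF4 site, CACGTG for the E box and TATAAA for the TATA box, none of which contains another, though neighbours may overlap. The only match was the E box of Slc5a1, which starts 143 bases before the transcript start, and 6.02% of 32851 promoters hold that motif in the same 250 bases. The other motifs are held by 6.43%, 9.99%, 10.76%, 0.38% and 12.37% of promoters in the order HNF1, GATA, CDX, HNF4 and TATA. The Slc2a5 stretch has 69.8% G and C, against 60% for Slc5a1 and 47.2% for Slc2a2.

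Genotype was tested in each organ on its own, with 2 WT against 2 KO libraries. No member was called in any organ. Among all genes tested, 0.223% were called in the spleen, 0.0509% in the liver and 0.0% each in the kidney, heart and small intestine. The number of members that passed the filter on low counts was 10 in the kidney, 9 in the small intestine, 6 each in the spleen and heart, and 7 in the liver. At an unadjusted p under 0.05 there was 1 member in the small intestine (Slc5a9, background 2.39%) and 1 in the spleen (Slc2a4, background 5.14%), and none in the liver (4.7%), kidney (0.638%) or heart (0.703%). DESeq2 called Slc2a4 in the spleen (0.697% of all genes) and no other member, where it called 0.207% of genes in the liver, 0.178% in the small intestine, 0.0107% in the heart and 0.0% in the kidney.

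**Figure D3:**
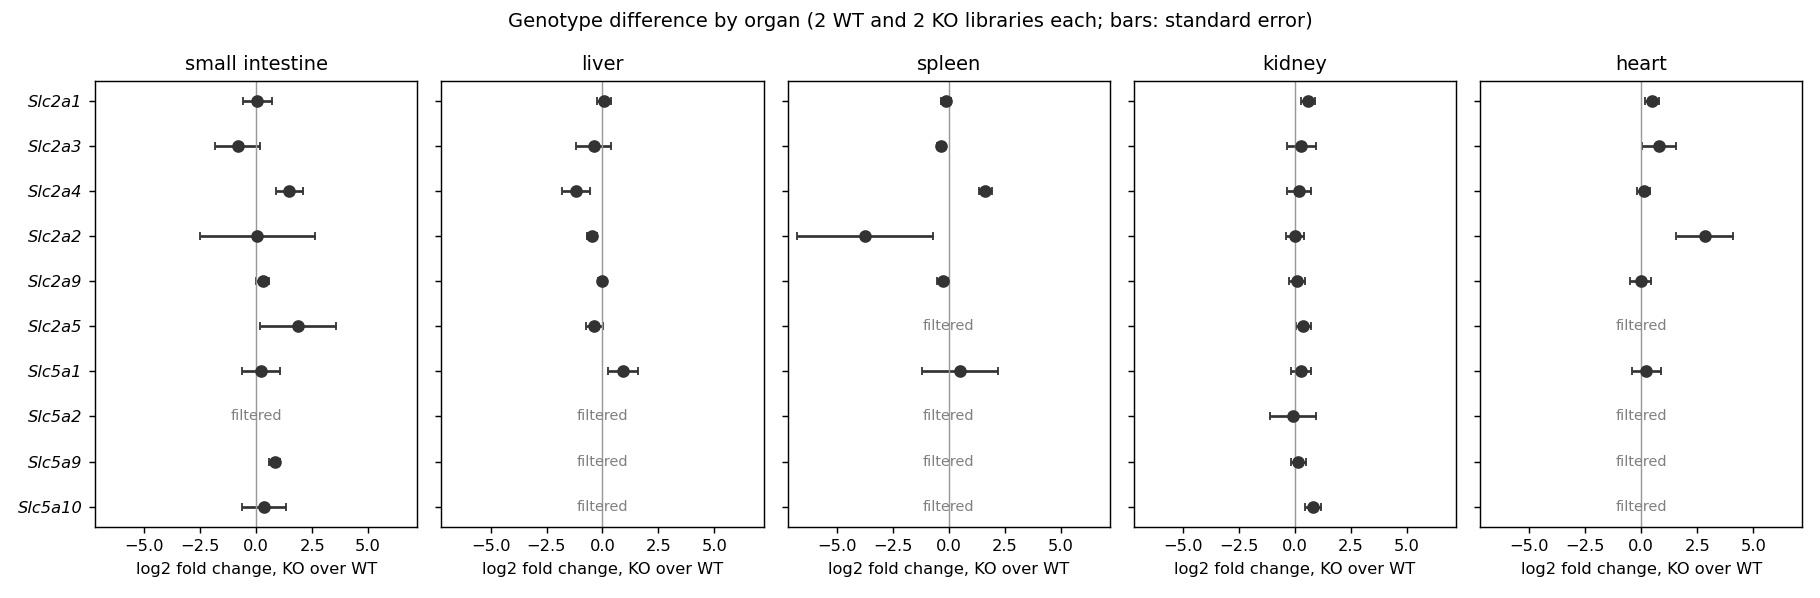
Log2 fold change of KO over WT for each transporter and organ (points, bars are standard errors from edgeR, 2 WT and 2 KO libraries), with members under the low-count filter marked. No member was called. The bar of Slc2a4 in the spleen (1.64) is short and clear of 0, as are others, such as that of Slc5a9 in the small intestine (0.82). Slc2a2 in the small intestine and the spleen has the longest bars.

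The lowest p of any member and organ was that of Slc2a4 in the spleen. It stood at 3.82 and 4.01 TPM in WT and 13.1 and 8.86 TPM in KO, so that both KO libraries lay above both WT libraries. The log2 fold change was 1.64 (standard error 0.28), with an edgeR adjusted p of 0.132. This was over the threshold of 0.1, but DESeq2 gave an adjusted p of 0.000108, and edgeR 0.0773 without spleen WT replicate 2, the library with liver transcripts, where 1.35% of all genes were called. Without spleen WT replicate 1, where 1.86% of all genes were called, the called member was Slc2a2 (-4.75, adjusted p = 0.00025), set against the library with liver transcripts alone. Both fits have a single WT library, whose spread was taken to be like that of the KO pair. In the other organs the KO to WT log2 fold change of Slc2a4 was 1.48 (standard error 0.59) for the small intestine, 0.10 (0.27) for the heart, 0.17 (0.54) for the kidney and -1.19 (0.62) for the liver, none of them called.

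Markers of red cell precursors were also higher in the KO spleen libraries. Between the KO libraries the order was not the same. Slc2a4 was higher in replicate 1 (13.1 against 8.86 TPM), and the marker sum was higher in replicate 2. Of 6 erythroid markers 4 were called higher in KO, among them Slc4a1 by 1.57 (standard error 0.16), Epb42 by 1.67 (0.18) and Alas2 by 1.34 (0.18) in log2 units, and the median over the 6 was 1.55 against 0.01 over all genes. Their summed level was 9947 and 12746 TPM in WT and 17511 and 29188 TPM in KO, mostly Hbb-bt, and none was at 0. Among all genes 0.223% were called in the spleen, and 0 genes were called at an adjusted p under 0.05, in the fit of all libraries or without spleen KO replicate 2. Pdzk1ip1, the SGLT2 partner, was the only other gene of the transporter lists called, with 1.58 (standard error 0.23, adjusted p = 0.0969). Adipocyte markers summed to 76.7 and 22.4 TPM in WT and 152 and 133 TPM in KO, led by Cfd, with none at 0, a median log2 fold change of 1.65 and 0 of 6 called. Skeletal muscle markers summed to 25.9 and 21.9 against 36.7 and 33.8 TPM, nearly all from Mylpf, with Ckm and Myh4 at 0 in WT replicate 2 and KO replicate 2 and Myh4 at 0 in KO replicate 1. The part of these cell types in the Slc2a4 difference was not tested.

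**Figure D4:**
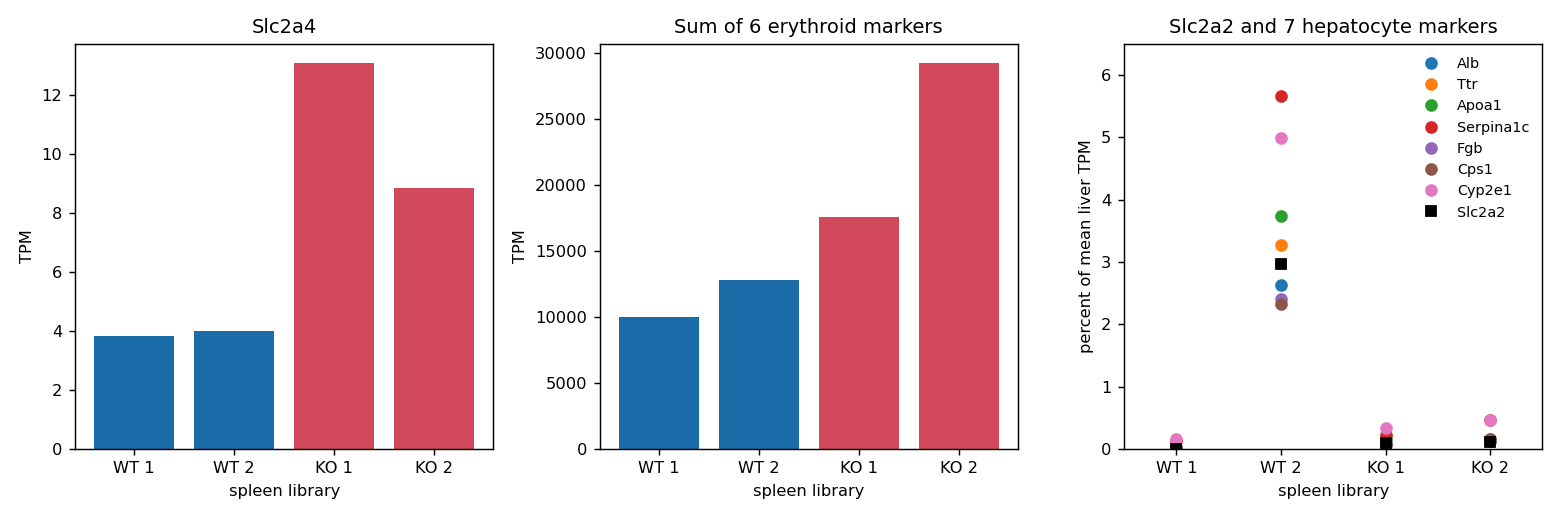
Left and middle, TPM of Slc2a4 and of the sum of 6 erythroid markers in the 4 spleen libraries, with both KO libraries above both WT libraries in each. Right, Slc2a2 and 7 hepatocyte markers in the same libraries as a percent of their mean liver TPM, where WT replicate 2 stands between 2.32% and 5.67% for the markers and at 2.96% for Slc2a2.

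In the small intestine the genotypes were read against the split by replicate. Slc2a5 was 3.78-fold higher in KO than in WT within replicate 1 and 3.94-fold within replicate 2. The WT and KO ranges overlapped, since each joined both replicates. In the fit without a replicate term the log2 fold change of 1.86 had a standard error of 1.69 (edgeR adjusted p = 0.9999), a spread that includes the replicate split. With the replicate number as a block Slc2a5 was not called either, but that test recovered 1 of 190 simulated 4-fold changes. Without KO replicate 2 the log2 fold change turned to -1.07, which sets a replicate 1 KO library against WT libraries of both replicates. Slc5a9 did not overlap between genotypes, being 1.92-fold and 1.90-fold higher in KO within replicates 1 and 2, with a fitted log2 difference of 0.82 (standard error 0.26, unadjusted p = 0.0286 in the edgeR fit, adjusted p = 0.9999). Slc2a4, with 1.96 and 2.29 TPM in WT and 10.01 and 3.71 TPM in KO, was 5.11-fold and 1.62-fold higher in KO. Without KO replicate 1, the library with heart transcripts, its log2 fold change was 0.85 in place of 1.48. None of the 6 smooth muscle markers was called (median log2 2.27), but they were also at higher sums in KO, with 275 and 360 TPM in WT and 2698 and 1160 TPM in KO, the most abundant being Actg2 in both replicate 1 libraries and Acta2 in both replicate 2 libraries, and none at 0. Their part in the difference was not tested.

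In the liver Slc2a2 was lower in both KO libraries than in both WT libraries, with a fitted log2 difference of -0.46 (standard error 0.23, edgeR adjusted p = 0.999). Slc2a5 and Slc2a4 were ordered the same way, at 1.63 ± 0.211 against 2.33 ± 0.331 TPM and at 0.320 ± 0.0933 against 0.872 ± 0.583 TPM (KO against WT, SD, n = 2). Groups of 2 libraries that do not overlap were common, at 39.1% of all genes tested in the spleen, 33.8% in the liver, 23.4% in the small intestine, 21.2% in the kidney and 12.4% in the heart. In the same order, 3 of 6, 3 of 7, 2 of 9, 4 of 10 and 1 of 6 members did not overlap. In the spleen these included Slc2a3, with a fitted log2 difference of -0.36 (standard error 0.16).

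In the kidney, calls depended on single WT libraries. Slc5a10 was 82.6 ± 27.5 TPM in KO and 47.4 ± 15.4 TPM in WT without overlap, with a fitted log2 difference of 0.81 (standard error 0.35, edgeR adjusted p = 0.9999), and Slc2a1, Slc2a5 and Slc5a1 did not overlap either. Slc5a2 differed most between libraries of a genotype, since the WT libraries held 18013 and 1106 counts and the KO libraries 8635 and 6996. Without WT replicate 1, Slc5a2 was called with a log2 fold change of 2.59 (adjusted p = 8.5e-06) and Slc2a4 with 1.04 (adjusted p = 0.0251), and without WT replicate 2, Slc5a1 was called with 1.02 (adjusted p = 0.0412). These fits have a single WT library, taken to vary like the KO pair, and called 16.1% of all genes without WT replicate 1 and 2.37% without WT replicate 2. With all 4 libraries the log2 fold change of Slc5a2 was -0.08 (standard error 1.03).

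Tubule markers were set beside the low Slc5a2 of kidney WT replicate 2. The convoluted tubule markers summed to 284 and 131 TPM in WT and 243 and 182 TPM in KO, so that this library was the lowest. It was also the lowest for Slc34a3 (34.6 TPM against 65.5 to 140) and Slc7a8 (18.5 against 38.9 to 65.1 TPM), but not for Slc7a7 (78.3 against 77.3 to 103 TPM). The straight tubule markers summed to 483 and 364 TPM in WT and 873 and 706 TPM in KO. Of these, Slc7a13 was highest in WT replicate 2 (13.3 against 1.21 to 2.01 TPM), and Acy3, Slc22a7 and Atp11a were lowest there. Of the 10 transporters, 8 were lowest in that library, all but Slc2a2 and Slc5a1, among them Slc2a4 at 6.96 TPM and Slc5a9 at 13.8 TPM, as were 59.2% of all genes tested. None of these markers was at 0, and their part in the Slc5a2 value was not tested.

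**Figure D5:**
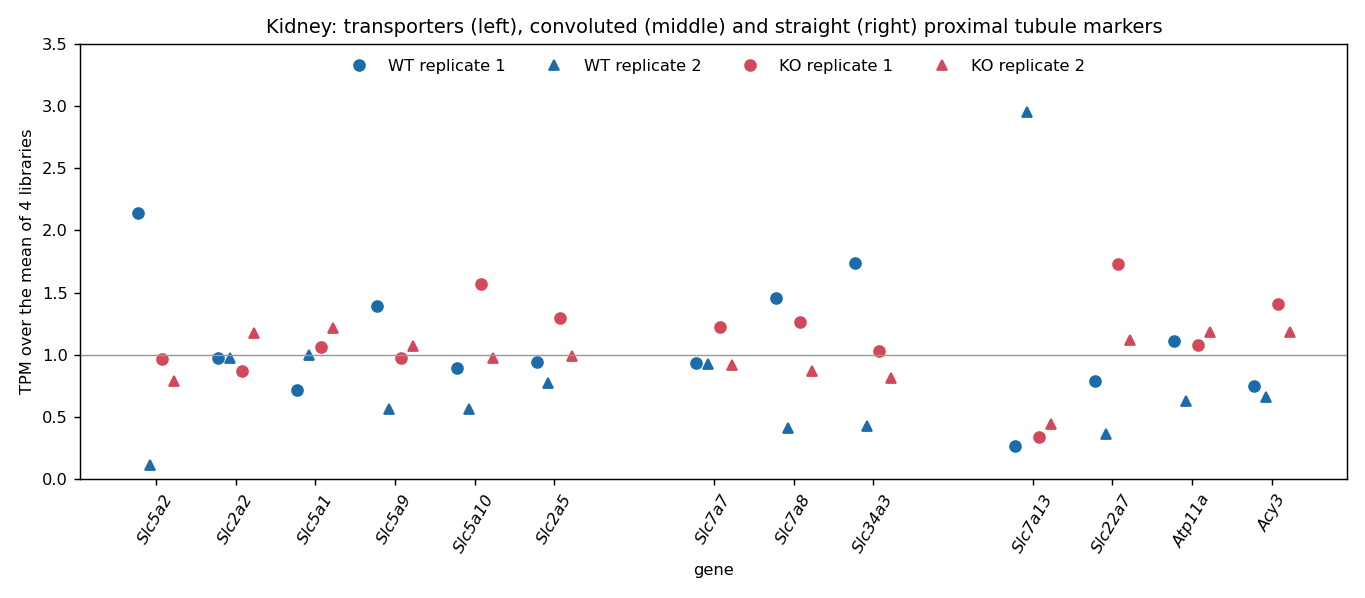
Level of 6 transporters, 3 convoluted and 4 straight proximal tubule markers in each kidney library, as TPM over the mean of the 4 libraries (WT in blue, KO in red, circles for replicate 1 and triangles for replicate 2). WT replicate 2 is lowest for Slc5a2, Slc5a9, Slc5a10, Slc2a5, Slc7a8, Slc34a3, Slc22a7, Atp11a and Acy3 and highest for Slc7a13.

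Whether the genotype effect differed between organs was tested with the 4 interaction terms in a fit of all libraries. No gene of 23159 was called (0.0%), and 535 had an unadjusted p under 0.05. Slc2a4 had the lowest p among the members (F = 5.54, unadjusted p = 0.00666 in the edgeR fit, adjusted p = 1), and the others had unadjusted p-values from 0.408 to 0.989. Without the filter on low counts 973 of 36620 genes were called (2.66%), among them Slc2a2, Slc2a4, Slc2a5 and Slc5a2.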

How the data were processed

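The authors trimmed the reads with cutadapt, aligned them with HISAT2 2.1.0 and counted them per gene with featureCounts 2.0.1 on the GRCm38 annotation, and deposited raw counts for 20 libraries. The methods give strand-specific counting of proper pairs, but the command stored with the counts holds no such options, so overlapping and antisense genes cannot be told apart and both mates of a pair may be counted. The genes and lists were chosen with earlier results of these data known. All 10 transporters are named, and from each list the most abundant gene per organ and the called genes, up to 3 by p. Other genes were named after their values were seen. Some genes that this rule would name are not reported here.

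Differences came from edgeR 4.0.16 (quasi-likelihood test, TMM, filterByExpr, R 4.3.3) over all genes, called where the fold change was over 2 and the adjusted p (Benjamini-Hochberg) under 0.1. Each organ was fitted on its own for genotype, and all 20 libraries together for organ pairs and the interaction. DESeq2 1.42.0, no low-count filter, RLE factors, a replicate block and leaving out each library were alternatives. Replicate 2 against replicate 1 was also run in the other 4 organs, a step added after the data were seen. A floor of 3 counts was used where an organ had none, and intervals cover counting error only. On simulated counts the number of false calls depended on the spread simulated, which was changed after a first setting gave many. False calls were above the nominal rate there for DESeq2, the replicate contrast, kidney against liver and, with or without the block, edgeR in the liver, spleen and kidney. The edgeR interaction test and small intestine genotype test without the block recovered none of the 4-fold changes, and DESeq2 in the small intestine and edgeR in the kidney a minority, so that a lack of calls there says little.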

Additional observations from a re-analysis of the deposited data

Results flagged for a closer look

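In 4 pairs of organs every KO library of a transporter lay above every WT library in one organ and below in the other. Groups of 2 that do not overlap were common, at 33.8% of all genes tested in the liver, which is in all 4 pairs, 39.1% in the spleen, 23.4% in the small intestine, 21.2% in the kidney and 12.4% in the heart. None of these pairs was tested on its own, and the test over all 5 organs gave an edgeR adjusted p of 1 for each of the 10 transporters. That test recovered 0 of 188 simulated 4-fold changes. Without the filter on low counts it called Slc2a2, Slc2a4, Slc2a5 and Slc5a2, where 2.66% of all genes were called. Slc2a2 had a KO over WT log2 fold change of 2.83 in the heart, where the WT libraries had 0 and 6 counts and both KO libraries 16, and -0.46 in the liver. Slc2a4 had 1.64 in the spleen and 1.48 in the small intestine, against -1.19 in the liver. Slc2a5 had 0.38 in the kidney and -0.37 in the liver.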

How the results depend on the processing

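With 2 libraries per genotype and organ, single libraries decided many counts. Genotype calls among all genes were 0 in the small intestine (51 by DESeq2), 8 in the liver (122 without the filter, 20 with the replicate block, 53 by DESeq2, 0 in the fit of all libraries), 42 in the spleen (0 at an adjusted p under 0.05, 313 without the filter, 209 by DESeq2, 0 in the fit of all libraries), 0 in the kidney and 0 in the heart (13 without the filter, 6 with the block, 3 by DESeq2). Leaving out a library gave 2 to 205 in the liver, 0 to 371 in the spleen, 1 to 2938 in the kidney and 0 to 22 in the heart. Transporters called in the spleen were 1 without the filter and 1 by DESeq2, 0 to 1 without a library, and 0 to 2 in the kidney without a library. Between liver and kidney 5357 genes were called with WT libraries alone in place of 8046, between spleen and heart 3 transporters with KO libraries alone in place of 5, and between small intestine and kidney 4 to 7 without a library. Without the filter the interaction called 973 genes and 4 transporters in place of 0. Replicate 2 against replicate 1 in the small intestine called 602 genes at an adjusted p under 0.05 and 2233 by DESeq2, in place of 1350. The cause of these shifts was not tested.

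The replicate numbers are shared by WT and KO, and whether a number pairs animals across genotypes or organs is not stated. The column headers of both heart replicate 2 libraries, the deeper pair of that organ, carry an added "pre" whose meaning is not given. Deviations of same-numbered libraries correlated at 0.57 in the small intestine, 0.365 in the heart, 0.126 in the kidney, 0.0376 in the liver and 0.00707 in the spleen. With the replicate number as a block, 0 transporters were called for genotype in any organ, 43 genes in the spleen, and Slc2a4 there had an adjusted p of 0.15. The block turned Slc2a2, small intestine over liver, to -2.03, a call in the opposite direction (adjusted p = 0.0777), and Slc2a5, spleen over heart, to 1.75. The calls of Slc2a5, small intestine over kidney (0.96, under 2-fold), and Slc5a9, liver over heart (adjusted p = 0.151), were lost with it, and Slc5a10, small intestine over spleen, was gained (1.83).

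Other reversals were of low or uneven values. With WT libraries alone, Slc2a1 liver over heart was 0.17, Slc2a3 liver over kidney 0.18, Slc2a5 spleen over heart 0.17 and Slc5a2 liver over heart 0.026. With KO libraries alone, Slc2a2 spleen over heart was -1.46 and Slc2a3 small intestine over heart -0.79, and -0.0043 without the filter. Leaving out a library moved the KO over WT log2 fold change of Slc2a4 in the kidney from -0.34 to 1.04, of Slc2a5 in the small intestine from -1.07 to 4.70, of Slc2a2 there from -4.85 to 7.0036 and of Slc2a2 in the spleen from -4.75 to 6.60. Replicate 2 over replicate 1 ranged from -0.40 to 2.81 for Slc2a3, -1.08 to 0.58 for Slc2a4, -0.51 to 0.11 for Slc2a9 and -0.76 to 1.30 for Slc5a10, with no residual degrees of freedom and so no test. Between organs, Slc2a1 ranged from -0.23 to 0.65 (small intestine over heart) and -0.24 to 0.20 (liver over heart), and Slc2a2 from -3.10 to 0.81 (small intestine over liver) and -3.11 to 4.22 (spleen over heart). Slc2a3 ranged from -0.88 to 1.08 (small intestine over heart) and -0.70 to 0.17 (liver over kidney), Slc2a5 from -0.87 to 2.29 (spleen over heart), Slc5a2 from -1.40 to 4.08 (spleen over heart) and -3.78 to 0.65 (liver over heart), and Slc5a9 from -0.0293 to 4.50 (liver over spleen).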
